A study of Oryza sativa with 16 samples.

Results

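The loci described here are 97 neighbouring gene models of chromosome 1 of rice, numbered LOC_Os01g37200 to LOC_Os01g39370 in the Nipponbare gene annotation, in which locus numbers follow the order of the genes along the chromosome. They were taken from the panicle count table by 2 conditions, a locus number within that range and at least 10 counts in total over 15 libraries. The block itself was chosen by the measured differences in counts between DTY-IL and Swarna in these same libraries, because many of its loci differed. All values that set one genotype against the other are therefore a description and carry no test. The response to drought within each genotype did not enter the choice and was tested. It was measured in the same libraries, so its tests are not wholly independent of the choice. The table listed 201 loci in the range, of which 100 (49.8%) reached 10 counts, beside 60.4% of all loci in the table. The block as described holds 97 of these 100, out of 33698 loci tested and 55801 loci listed.

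Whole panicles were collected from greenhouse pots of 2 genotypes under 2 treatments, and RNA was sequenced in 4 libraries per group. DTY-IL is a single drought-tolerant introgression line that carries segments of the tolerant landrace N22 in the background of Swarna, so values in DTY-IL are those of 1 line. Swarna, the recurrent parent, is a widely grown drought-sensitive indica variety. The 4 groups were DTY-IL under drought, DTY-IL under well-watered control conditions, Swarna under drought and Swarna under control conditions. The drought treatment began at the reproductive stage, with soil moisture kept at 75% of field capacity over 9 days and lowered to 50% over 3 more, and panicles of both treatments were taken on day 12. Replicate numbers below are those of the count columns and do not identify pots.

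An introgression line carries donor alleles in a few chromosome segments and alleles of the recurrent parent elsewhere. Within a donor segment, neighbouring genes come from the donor together, and each of them may differ from the recurrent parent in its promoter, its coding sequence or its presence. Read counts were assigned to the gene models of another variety, Nipponbare, so a count of 0 means that no read was assigned to that model. No gene names or functions for these loci were found in the files and tables used here, and each is named by its locus number alone.

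Total counts ranged from 24677520 to 31080042 in the 15 libraries used, and the members took 0.277% to 0.389% of them. Swarna control replicate 3 stood apart, with 20496 genes at 10 or more counts beside 24398 to 26160 in the other libraries. It was not used, which left 3 libraries in Swarna control and 4 in each other group. Among DTY-IL control libraries, replicate 3 was kept but differed more from the others than they did from each other. A dispersion index of pairs of libraries was 193.7 to 261.6 for its pairs and 51.91 to 56.05 for the remaining DTY-IL control pairs. Genes that mark floral organs (9 MADS-box genes) were detected in all groups, with none at 0. Their summed level was 1040 to 1473 CPM (counts scaled to a common library total) in DTY-IL under drought and 1580 to 1978 in DTY-IL control, and 742 to 1144 in Swarna under drought and 1907 to 1924 in Swarna control. Bulk panicles do not separate fewer cells of one type from less RNA per cell.

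Of the 97 members, 66 had a mean of at least 50 normalized counts over the 15 libraries and 18 had a mean under 10. Normalized counts are counts scaled to the same effective library size, and they are not divided by gene length, so levels are compared between libraries and not between loci. A member is said to be called where its adjusted p was at most 0.05 and its log2 fold change at least 1 in size.

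Between the genotypes, 10 members were called under control conditions, 6 with higher counts in DTY-IL and 4 with lower counts. Over all genes tested, 1.1% were called in that comparison, 0.599% higher and 0.502% lower. Under drought, 19 members were called, 11 higher and 8 lower in DTY-IL, where 3.36% of all genes were (2.09% higher and 1.26% lower). These shares are what the block was picked for. All 10 members called under control were also called under drought and in the same direction. Over all genes tested, 371 were called under control, and 277 of these were called under drought too (0.822% of all genes). Most genes called under control were thus called in both treatments, in the block and outside it. The median log2 fold change of DTY-IL over Swarna stayed near 0 in both treatments. It was 0.06 over the members and 0.04 over all genes under control, and -0.05 over the members and 0.00 over all genes under drought. The median size of the log2 fold change, without its sign, was 0.48 over the members and 0.37 over all genes under drought, and 0.29 over both under control.

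Calls were counted by stretch along the block, and differences between stretches were not tested. From LOC_Os01g37200 up to locus number 38000, 11 of 45 members (24.4%) were called under drought. Under control 6 (13.3%) were called there, and all 6 were higher in DTY-IL. From there up to locus number 39000, 4 of 30 members (13.3%) were called under drought and 3 (10%) under control, and those 3 were lower in DTY-IL. In the remaining stretch, up to LOC_Os01g39370, 4 of 22 members (18.2%) were called under drought and 1 (4.55%) under control, again lower in DTY-IL. Between LOC_Os01g37600 and LOC_Os01g38560, which were themselves called in both treatments, lay 40 members of which 0 were called under control and 2 under drought. The ends of this gap were taken from the calls, so its 0 under control followed from that choice. In flanks of the same width in locus numbers, 2 of 88 loci below the block (2.27%) and 16 of 130 loci above it (12.3%) were called under drought. Under control, 1 of the 88 and 10 of the 130 (7.69%) were called.

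**Figure D1:**
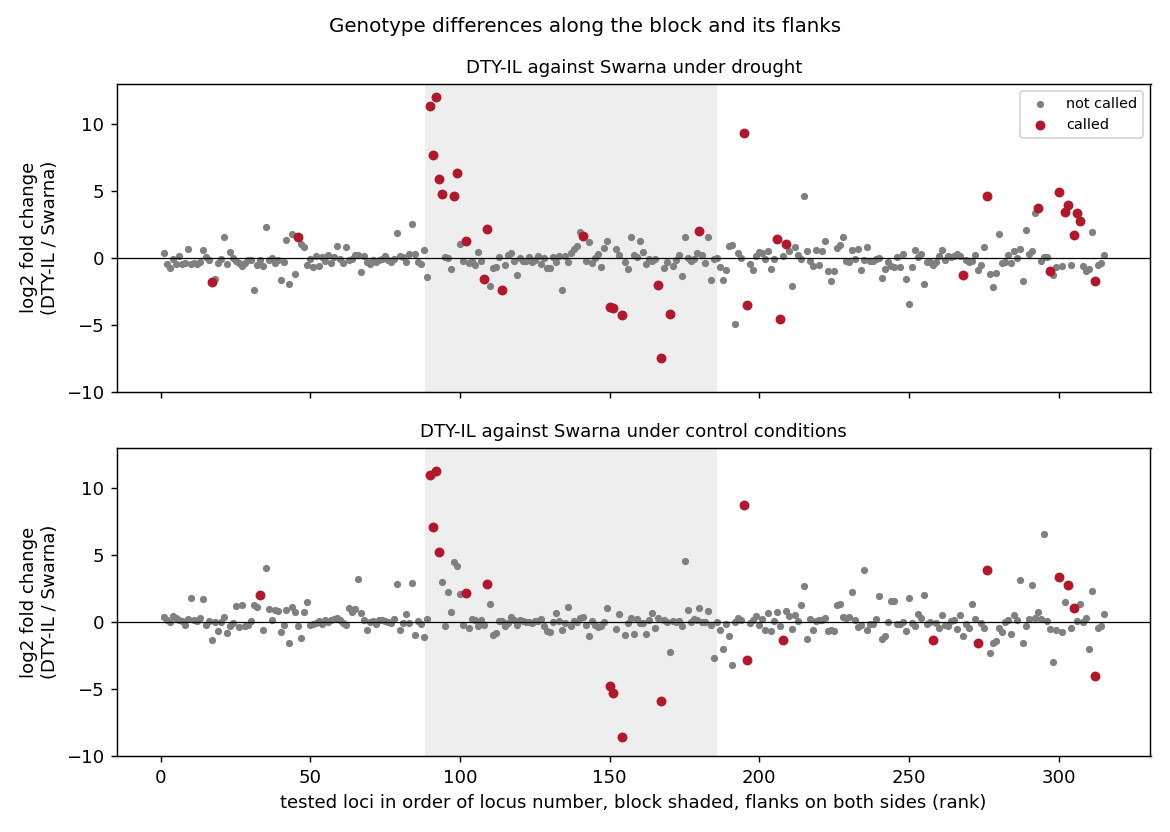
Fitted log2 fold change of DTY-IL over Swarna for each member and for the flanking loci, in order of locus number, under drought and under control. The 6 members called higher in DTY-IL in both treatments lie at the lower-numbered end of the block and the 4 called lower in both lie from LOC_Os01g38560 on, some loci of the upper flank are also called, and fitted values of loci with no counts in a genotype depend on the prior count and are no bound.

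At the lower edge, the first member, LOC_Os01g37200, had log2 fold changes of DTY-IL over Swarna of -1.38 under drought and 0.20 under control, and the nearest tested loci outside were LOC_Os01g37140 (0.59 and -1.11) and LOC_Os01g37130 (-0.44 and -0.14). The last member, LOC_Os01g39370, had 10 counts in total. Just outside it, LOC_Os01g39380 had -0.00 under drought and 0.01 under control, and LOC_Os01g39385 had -0.64 and -0.62. The members next above the minimum of 10 counts were LOC_Os01g39160 with 11 and LOC_Os01g38870 with 12. Those next below it were LOC_Os01g38130 with 8, LOC_Os01g38640 with 7 and LOC_Os01g37300 with 6, and they are not members.

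Some members had counts in one genotype and none or almost none in the other. In 4 members every Swarna library had at most 3 counts while every DTY-IL library had more, beside 0.181% of all genes. In 2 members the reverse held, beside 0.157% of all genes. LOC_Os01g37210 had 355, 327, 317 and 310 normalized counts in DTY-IL under drought and 273, 234, 247 and 262 in DTY-IL control, and 0 in each of the 7 Swarna libraries. Against a floor of 3 counts per library, this was at least 104-fold higher in DTY-IL under drought and at least 85.4-fold higher under control. LOC_Os01g37260 had 442, 550, 513 and 523 normalized counts in DTY-IL under drought and 269, 312, 353 and 286 in DTY-IL control, and likewise 0 in all Swarna libraries.

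The bounds for LOC_Os01g37260 were at least 161-fold under drought and at least 103-fold under control. LOC_Os01g37220, numbered between these loci, had few counts, with 22.5, 22.7, 26.5 and 31.4 normalized counts in DTY-IL under drought, 14.7, 22.7, 18.9 and 12.4 in DTY-IL control, and 0 in all Swarna libraries. Its low counts allowed bounds of only 8.18-fold and 5.78-fold. For all 3 loci the genotypes did not overlap in either treatment, and the floors cover counting error only.

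LOC_Os01g37320, a little further along, had 96 counts over the 4 DTY-IL drought libraries and 3 over the 4 Swarna drought libraries, a ratio of 30.3 after scaling for library size (exact 95% counting interval 10.1 to 150). Under control the totals were 37 in 4 DTY-IL libraries and 3 in 3 Swarna libraries, a ratio of 9.03 (2.86 to 45.8). These intervals leave out the spread between libraries. LOC_Os01g37320 was called under drought and not under control.

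The other 3 members called higher in DTY-IL in both treatments were expressed in both genotypes. LOC_Os01g37280 had 1158, 1068, 1174 and 964 normalized counts in DTY-IL under drought, against 20.2, 19.5, 18.1 and 15.5 in Swarna under drought. In control panicles it had 1197, 1115, 1051 and 798 in DTY-IL, against 27.4, 31.8 and 22.8 in Swarna. The log2 fold change of DTY-IL over Swarna was 5.89 ± 0.18 (SE) under drought and 5.24 ± 0.20 under control, with a wide gap between the genotypes in each treatment.

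LOC_Os01g37470 had 928, 693, 1131 and 1013 normalized counts in DTY-IL under drought, against 464, 389, 355 and 361 in Swarna under drought. Under control it had 699, 1335, 1099 and 898 in DTY-IL, against 210, 186 and 258 in Swarna. The difference was 1.26 ± 0.20 under drought and 2.21 ± 0.23 under control on the log2 scale. The genotypes did not overlap in either treatment. LOC_Os01g37600 was similar in pattern, with 58.4, 85.5, 91.3 and 78.5 normalized counts in DTY-IL under drought against 14.1, 16.4, 19.1 and 21.0 in Swarna under drought. Control panicles had 47.7, 79.1, 49.1 and 49.4 in DTY-IL against 8.13, 9.63 and 5.95 in Swarna. These values gave 2.14 ± 0.27 under drought and 2.81 ± 0.32 under control, again without overlap.

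**Figure D2:**
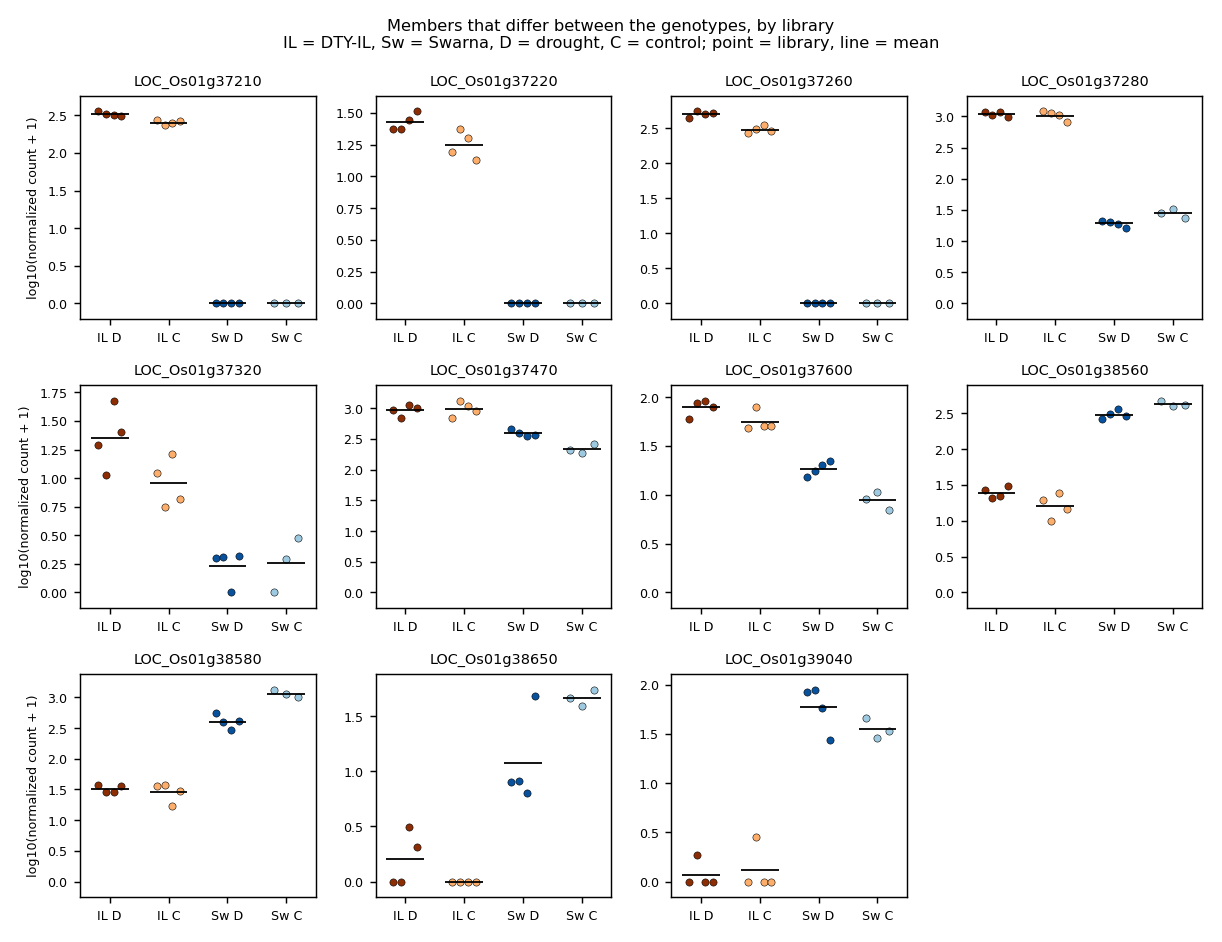
Normalized counts, on a log10(value + 1) axis, of the members that were called between genotypes in both treatments or at the limit of 3 counts in one genotype, in DTY-IL drought, DTY-IL control, Swarna drought and Swarna control libraries. Each point is 1 library and each line the mean of a group, and LOC_Os01g37210, LOC_Os01g37220 and LOC_Os01g37260 sit at 0 in all 7 Swarna libraries.

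Among the 4 members lower in DTY-IL in both treatments, LOC_Os01g38560 had 25.6, 20.1, 21.2 and 29.3 normalized counts in DTY-IL under drought, against 266, 306, 361 and 285 in Swarna under drought. Under control it had 18.4, 9.09, 23.6 and 13.5 in DTY-IL, against 476, 404 and 417 in Swarna. The log2 fold changes were -3.66 ± 0.25 and -4.73 ± 0.27. LOC_Os01g38580 followed the same pattern, with 35.8, 27.9, 27.6 and 34.5 normalized counts in DTY-IL under drought against 545, 391, 293 and 415 in Swarna under drought.

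In control panicles LOC_Os01g38580 had 34.9, 36.4, 16.1 and 29.2 normalized counts in DTY-IL, against 1338, 1111 and 995 in Swarna. Its log2 fold changes were -3.70 ± 0.26 under drought and -5.29 ± 0.28 under control. For both loci every DTY-IL library lay far below every Swarna library.

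LOC_Os01g38650 and LOC_Os01g39040 were at the limit in DTY-IL. LOC_Os01g38650 had 0, 0, 2.12 and 1.05 normalized counts in DTY-IL under drought, against 7.07, 7.19, 5.31 and 47.5 in Swarna under drought. Under control it had 0 in all 4 DTY-IL libraries, against 45.7, 38.5 and 54.5 in Swarna. The control level was at least 15.8-fold lower in DTY-IL. Under drought Swarna had 21.8 times the DTY-IL level (exact 95% counting interval 7.12 to 109). The interval covers counting error only and leaves out the spread between libraries. Of the 62 Swarna drought counts, 43 came from replicate 4. Without Swarna drought replicate 4, the highest drought library of LOC_Os01g38650, the fitted log2 fold change under drought was -2.92 instead of -4.25. The drought call was lost without that library, without DTY-IL drought replicate 1, 2 or 4, without any 1 of the 3 Swarna control libraries, and with all 16 libraries.

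LOC_Os01g39040 had 0, 0.872, 0 and 0 normalized counts in DTY-IL under drought, against 83.8, 88.4, 57.4 and 26.5 in Swarna under drought. In control panicles it had 0, 1.82, 0 and 0 in DTY-IL, against 44.7, 27.9 and 32.7 in Swarna. Counts in DTY-IL were thus 1 in total under drought and 2 under control. The level in Swarna was 261 times that in DTY-IL under drought (exact 95% counting interval 46.4 to 10340). Under control it was 72.4 times (19.5 to 605). These intervals also cover counting error only.

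A further 9 members were called between genotypes under drought and not under control. Of these, 5 were higher in DTY-IL and 4 were lower. Over all 33698 genes tested, 1131 (3.36%) were called under drought, and 277 (0.822%) were called in both treatments. Several of the 9 members are named here after their values were seen. A missing control call does not mean that the genotypes were alike there. In control libraries LOC_Os01g37320, LOC_Os01g37370, LOC_Os01g37380 and LOC_Os01g39280 also lay wholly higher in DTY-IL, with log2 fold changes of 3.02, 4.46, 4.21 and 1.05. LOC_Os01g39070 lay wholly lower there (-2.20), and the rest of the 9 overlapped. LOC_Os01g38229 had 1428, 1996, 1158 and 1593 normalized counts in DTY-IL under drought against 533, 579, 327 and 567 in Swarna under drought, and its control libraries overlapped, with 479, 513, 127 and 600 in DTY-IL and 313, 403 and 271 in Swarna. LOC_Os01g39280 had 143, 80.3, 127 and 163 in DTY-IL against 26.3, 26.7, 44.6 and 29.8 in Swarna under drought. LOC_Os01g37370 and LOC_Os01g37380 were near the limit of detection. LOC_Os01g37370 had 12 counts over the DTY-IL drought libraries and 0 over those of Swarna. A floor of 3 counts per library then gives no fold bound above 1.

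LOC_Os01g37380 had 39 counts over the DTY-IL drought libraries and 0 over the Swarna drought libraries. Against a floor of 3 counts per library, this bounds the difference at 3.12-fold or more. Among the 4 lower in DTY-IL, LOC_Os01g37750 and LOC_Os01g39020 are described with the drought response. LOC_Os01g39070 had 2 counts over the DTY-IL drought libraries and 43 over those of Swarna. LOC_Os01g37590 had 1837, 743, 1270 and 1075 normalized counts in DTY-IL under drought against 5784, 1804, 2544 and 4494 in Swarna under drought, and 1 Swarna library lay within the DTY-IL range.

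Counting members whose libraries did not overlap between genotypes, 17 lay wholly higher and 17 wholly lower in DTY-IL under drought, where 13.3% of all genes separated in either direction. Under control 14 lay wholly higher and 12 wholly lower, where 12.9% of all genes did.

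The library that was left out gives a reading outside the 15 libraries that chose the block. For 8 of the 10 members called under control, Swarna control replicate 3 lay on the Swarna side of the midpoint between the DTY-IL and Swarna control means, with 0 counts at LOC_Os01g37210, LOC_Os01g37220 and LOC_Os01g37260. The exceptions were LOC_Os01g38560, with 45 counts, and LOC_Os01g38650, with 2, and they were among the 4 members lower in DTY-IL. For the 6 members higher in DTY-IL, the Swarna side is the side of low counts. The left-out library had fewer genes at 10 or more counts (20496) than any other (at least 24398). Of the other 361 genes called under control, 257 (71.2%) lay on the Swarna side. This is 1 library that differs from the rest in other respects, so the counts carry no test.

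Drought within a genotype was tested with edgeR's quasi-likelihood test and Benjamini-Hochberg adjustment over all 33698 genes. In DTY-IL, 18 members were called, 12 higher and 6 lower under drought. That is 18.6% of members, beside 19.8% of all genes (7.46% higher and 12.3% lower). In Swarna, 26 members were called, 15 higher and 11 lower. That is 26.8% of members, beside 29.5% of all genes (11.9% higher and 17.6% lower). Both shares were close to those of all genes, and in each genotype more of the called members were higher than lower under drought. The median log2 fold change of drought over control was 0.19 over the members and -0.03 over all genes in DTY-IL, and 0.18 over the members and 0.00 over all genes in Swarna.

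With Swarna control replicate 3 included, 11 members were called in DTY-IL and 20 in Swarna, where 8.49% of all genes were called in DTY-IL and 20.7% in Swarna. The 20 include some members that were not called in Swarna without this library, as other calls were lost. In DTY-IL, 18 members lay wholly higher and 6 wholly lower in drought than in control libraries, where 29.3% of all genes separated. In Swarna the counts were 30 and 23, where 52.2% of all genes separated, with only 3 control libraries. Marker genes other than the floral ones also moved with drought. The 6 green-tissue genes (light-harvesting proteins and the small subunit of Rubisco) summed to 947 to 8135 CPM in DTY-IL under drought and 8445 to 23010 in DTY-IL control, and to 970 to 2816 in Swarna under drought and 13970 to 20520 in Swarna control. The 3 pollen genes summed to 6.84 to 15.2 in DTY-IL under drought and 22.2 to 59.5 in DTY-IL control, and to 5.87 to 22.3 in Swarna under drought and 80.5 to 87.5 in Swarna control.

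The 4 tapetum regulators, which act in the cell layer that feeds pollen, summed to 5.08 to 36.5 in DTY-IL under drought and 31.4 to 111 in DTY-IL control, and to 1.91 to 8.79 in Swarna under drought and 47.8 to 69.6 in Swarna control. No gene of these 3 lists was at 0 in all libraries of a group. In DTY-IL, 3 of the 6 green, 3 of the 3 pollen and 1 of the 4 tapetum genes were called lower under drought, along with 4 of the 9 floral genes. In Swarna the counts were 6, 3, 2 and 6. Their part in the drought values of the members was not tested.

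In both genotypes, 14 members were called for drought, beside 15.5% of all genes, 8 of them higher and 6 lower, with the same direction in each genotype. A further 4 were called in DTY-IL only, beside 4.31% of all genes, and 12 in Swarna only, beside 14% of all genes. A call in 1 genotype alone is not a test of a difference between the genotypes.

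**Figure D3:**
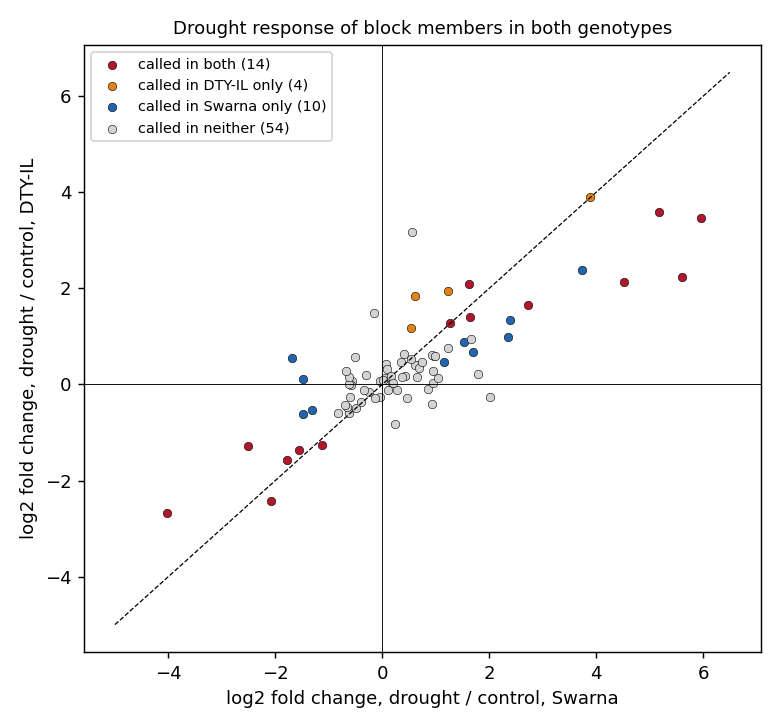
Log2 fold change of drought over control in DTY-IL against that in Swarna for 82 members, coloured by where each was called, with the dashed line at equal values and 15 members not drawn because a genotype had at most 3 counts in every library. The 14 members called in both genotypes have the same sign in both, 4 were called in DTY-IL only, and 10 of the 12 called in Swarna only are drawn.

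Among members with higher counts under drought, LOC_Os01g37200, the first of the block, had 29.7, 32.3, 94.4 and 107 normalized counts in DTY-IL under drought against 9.18, 2.73, 4.73 and 4.49 in DTY-IL control. In Swarna it had 114, 301, 187 and 82.8 under drought against 3.05, 9.63 and 0.991 under control. It rose by 3.60 ± 0.65 on the log2 scale in DTY-IL (adjusted p = 0.00128) and by 5.18 ± 0.77 in Swarna (adjusted p = 0.000134). Drought and control libraries did not overlap in either genotype.

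LOC_Os01g37750 had 22.5, 31.4, 54.1 and 67.0 normalized counts in DTY-IL under drought against 6.42, 4.55, 0.945 and 3.37 in DTY-IL control. Swarna panicles had 131, 265, 399 and 137 under drought against 2.03, 7.71 and 0.991 under control. The rise was 3.46 ± 0.61 in DTY-IL (adjusted p = 0.00113) and 5.97 ± 0.73 in Swarna (adjusted p = 3.04e-05). Every drought library lay above every control library, and the Swarna drought libraries lay above those of DTY-IL.

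LOC_Os01g37630 had 27.6, 79.4, 87.0 and 29.3 normalized counts in DTY-IL under drought against 11.9, 10.9, 14.2 and 10.1 in DTY-IL control. The Swarna libraries had 158, 107, 548 and 118 under drought against 10.2, 2.89 and 0.991 under control. It rose by 2.23 ± 0.63 in DTY-IL (adjusted p = 0.0160) and by 5.61 ± 0.83 in Swarna (adjusted p = 0.000130). Swarna drought replicate 3 was far above the other Swarna drought libraries.

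LOC_Os01g39020 had 79.9, 27.0, 74.3 and 137 normalized counts in DTY-IL under drought against 18.4, 18.2, 17.0 and 18.0 in DTY-IL control. Its Swarna values were 464, 230, 350 and 267 under drought against 17.3, 15.4 and 9.91 under control. Its rise was 2.14 ± 0.40 in DTY-IL (adjusted p = 0.00149) and 4.52 ± 0.48 in Swarna (adjusted p = 1.24e-05). Control levels of the 2 genotypes overlapped, while all Swarna drought libraries exceeded all DTY-IL drought libraries.

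LOC_Os01g39136 had 88.1, 204, 224 and 185 normalized counts in DTY-IL under drought against 62.4, 76.4, 35.0 and 49.4 in DTY-IL control. In Swarna it had 253, 719, 598 and 229 under drought against 82.3, 53.9 and 66.4 under control. The rise was 1.65 ± 0.40 in DTY-IL (adjusted p = 0.00723) and 2.73 ± 0.46 in Swarna (adjusted p = 0.000332), without overlap between treatments. The other 3 members that rose in both genotypes, LOC_Os01g37790, LOC_Os01g37832 and LOC_Os01g38980, had log2 fold changes of 1.28, 1.40 and 2.09 in DTY-IL and 1.27, 1.64 and 1.62 in Swarna. LOC_Os01g37790 rose by almost the same amount in both genotypes. The Swarna call of LOC_Os01g38980 was lost without Swarna control replicate 1 (adjusted p = 0.0501).

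LOC_Os01g37460 was called in DTY-IL only, and its libraries were widely spread. It had 3.07, 106, 229 and 403 normalized counts in DTY-IL under drought against 10.1, 24.5, 0 and 14.6 in DTY-IL control. Swarna panicles had 17.2, 516, 316 and 8.83 under drought against 15.2, 25.04 and 2.97 under control. The log2 fold change was 3.90 ± 1.37 in DTY-IL (adjusted p = 0.0413) and 3.88 ± 1.53 in Swarna (adjusted p = 0.0522), so the estimates were alike and fell on either side of the threshold. Treatments overlapped in both genotypes. The DTY-IL call was lost when any of 8 libraries was left out (adjusted p 0.0538 to 0.102), namely each of the 4 DTY-IL control libraries, DTY-IL drought replicates 2, 3 and 4, and Swarna control replicate 1.

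**Figure D4:**
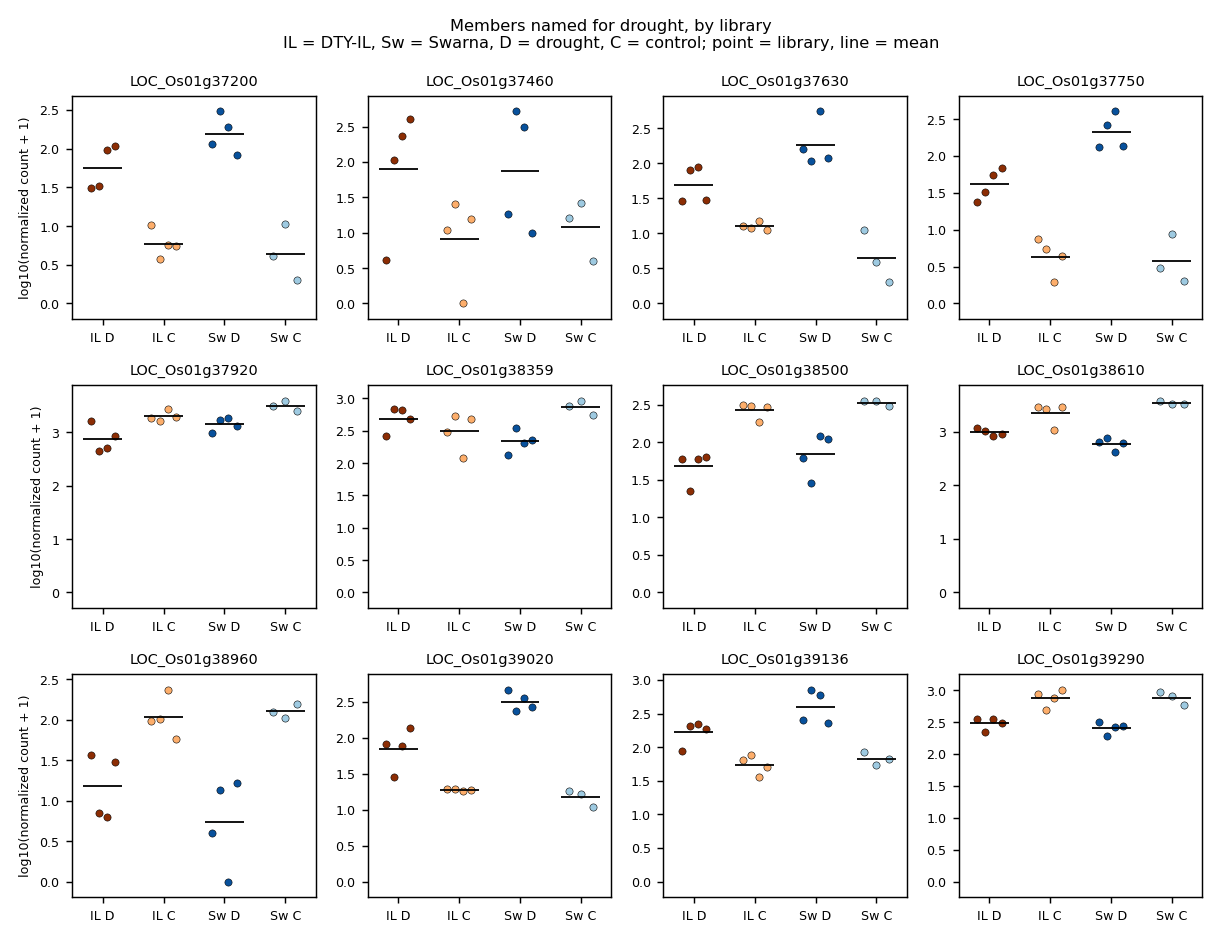
Normalized counts, on a log10(value + 1) axis, of the members named for their drought response, in DTY-IL drought, DTY-IL control, Swarna drought and Swarna control libraries. Each point is 1 library and each line the mean of a group, and the drought libraries of LOC_Os01g37200, LOC_Os01g37750 and LOC_Os01g39020 sit above the control libraries in both genotypes.

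Among members with lower counts under drought, LOC_Os01g38960 had 35.8, 6.11, 5.31 and 29.3 normalized counts in DTY-IL under drought against 96.4, 100.01, 234 and 56.2 in DTY-IL control. The Swarna libraries had 3.03, 12.3, 0 and 15.5 under drought against 122, 103 and 156 under control. It fell in both genotypes, with log2 fold changes of -2.67 ± 0.73 in DTY-IL (adjusted p = 0.0135) and -4.03 ± 0.83 in Swarna (adjusted p = 0.00141), and treatments did not overlap.

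LOC_Os01g38500 had 59.4, 21.8, 59.4 and 63.8 normalized counts in DTY-IL under drought against 311, 305, 188 and 295 in DTY-IL control. Its Swarna values were 61.6, 27.8, 121 and 109 under drought against 351, 360 and 302 under control. Log2 fold changes were -2.43 ± 0.41 in DTY-IL (adjusted p = 0.000809) and -2.08 ± 0.42 in Swarna (adjusted p = 0.00122). Drought libraries lay below control libraries in each genotype.

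LOC_Os01g38610 had 1183, 1054, 822 and 892 normalized counts in DTY-IL under drought against 2902, 2654, 1077 and 2942 in DTY-IL control. In Swarna it had 657, 763, 412 and 608 under drought against 3842, 3289 and 3267 under control. The log2 fold change was -1.28 ± 0.27 in DTY-IL (adjusted p = 0.00330) and -2.51 ± 0.29 in Swarna (adjusted p = 2.20e-05). DTY-IL control replicate 3 lay within the DTY-IL drought range, and the Swarna treatments were far apart.

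LOC_Os01g39290 had 347, 220, 355 and 301 normalized counts in DTY-IL under drought against 868, 492, 760 and 1019 in DTY-IL control. Swarna panicles had 320, 190, 263 and 268 under drought against 933, 799 and 576 under control. It changed by -1.36 ± 0.24 in DTY-IL (adjusted p = 0.00111) and -1.56 ± 0.25 in Swarna (adjusted p = 0.000265). The 2 genotypes overlapped in each treatment.

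LOC_Os01g37920 had 1600, 454, 508 and 856 normalized counts in DTY-IL under drought against 1862, 1607, 2739 and 1970 in DTY-IL control. The Swarna libraries had 980, 1705, 1829 and 1290 under drought against 3045, 3939 and 2531 under control. It changed by -1.26 ± 0.35 in DTY-IL (adjusted p = 0.0143) and -1.13 ± 0.37 in Swarna (adjusted p = 0.0226). The lowest control library of DTY-IL lay just above its highest drought library, and the Swarna call was lost without Swarna control replicate 2, Swarna drought replicate 1 or Swarna drought replicate 4 (adjusted p 0.0521 to 0.0920). The sixth member that fell in both genotypes, LOC_Os01g38520, had log2 fold changes of -1.58 in DTY-IL and -1.78 in Swarna. Its DTY-IL call was lost without DTY-IL control replicate 1 or 3 or DTY-IL drought replicate 2 or 3 (adjusted p 0.0575 to 0.0717), and its Swarna call without Swarna control replicate 4 or Swarna drought replicate 3 or 4 (adjusted p 0.0527 to 0.0555).

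With Swarna control replicate 3 included, LOC_Os01g38960, LOC_Os01g38500, LOC_Os01g38520, LOC_Os01g38610 and LOC_Os01g37920 were not called in DTY-IL (adjusted p 0.0540 to 0.108), although their log2 fold changes moved by less than 0.05. In Swarna, LOC_Os01g38500 had -1.69 (adjusted p = 0.112), LOC_Os01g38520 had -1.46 (adjusted p = 0.111) and LOC_Os01g37920 had -0.81 (adjusted p = 0.229) in that fit. Of the members that rose, LOC_Os01g37460 (3.88, adjusted p = 0.0790) and LOC_Os01g39330 (1.94, adjusted p = 0.0527) were not called in DTY-IL there, and LOC_Os01g37790 (0.99) and LOC_Os01g38980 (0.74, adjusted p = 0.327) were not called in Swarna. The Swarna calls of LOC_Os01g37500, LOC_Os01g37970, LOC_Os01g38180, LOC_Os01g38870 and LOC_Os01g39070 were also lost in that fit.

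The other members called in DTY-IL only were LOC_Os01g38229, LOC_Os01g38660 and LOC_Os01g39330, all higher under drought, with log2 fold changes of 1.85, 1.18 and 1.96 in DTY-IL and 0.61, 0.54 and 1.23 in Swarna. Without DTY-IL drought replicate 2, LOC_Os01g38660 (0.95) and LOC_Os01g39330 (1.35, adjusted p = 0.0752) were not called. In Swarna only, 7 members were higher and 5 lower. LOC_Os01g38359 had 260, 673, 657 and 481 normalized counts in DTY-IL under drought against 306, 527, 118 and 472 in DTY-IL control, and the treatments overlapped. Its Swarna values were 130, 352, 204 and 227 under drought against 752, 926 and 544 under control, without overlap. Its log2 fold change was 0.54 ± 0.42 in DTY-IL (adjusted p = 0.336), and in Swarna it fell by 1.70 ± 0.45 (adjusted p = 0.00738).

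Of the 10 members that differed between genotypes in both treatments, 8 were called for drought in neither genotype, where 67 of all 97 members were. The exceptions were LOC_Os01g37600, which rose by 1.15 ± 0.32 in Swarna (adjusted p = 0.00898), and LOC_Os01g38580, which fell by 1.48 ± 0.24 in Swarna (adjusted p = 0.000240). In DTY-IL their drought log2 fold changes were 0.47 ± 0.25 (adjusted p = 0.155) and 0.11 ± 0.25 (adjusted p = 0.774). Without Swarna control replicate 4 the Swarna value of LOC_Os01g37600 was 0.89 (adjusted p = 0.0588). LOC_Os01g37260, which had no counts in Swarna, was higher under drought in DTY-IL by 0.73 ± 0.16 (adjusted p = 0.00756), below the fold threshold of a call. LOC_Os01g37210 and LOC_Os01g37220 likewise had no counts in Swarna, and LOC_Os01g38650 and LOC_Os01g39040 had almost none in DTY-IL. A drought call in that genotype was hardly possible for these loci, so the count of 8 is no measure of their drought response.

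The difference of the drought responses between the genotypes was built from the same genotype contrasts and is given as a description. With edgeR, 0 members were called for it, beside 0.0564% of all genes (0.0326% higher and 0.0237% lower), and 16 members had an unadjusted p under 0.05, beside 12.3% of all genes. With DESeq2, 4 members were called, beside 1.56% of all genes. They were LOC_Os01g37630 (-3.39 ± 0.98), LOC_Os01g39020 (-2.40 ± 0.63), LOC_Os01g38359 (2.24 ± 0.65) and LOC_Os01g38580 (1.57 ± 0.38), where a positive value means a higher drought log2 fold change in DTY-IL.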

How the data were processed

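Panicle RNA was sequenced in 16 libraries. Reads were trimmed with Trimmomatic and assigned to the Nipponbare transcripts of RGAP 7 with Salmon 0.7.2. The authors summed the resulting estimated counts per gene and deposited them as whole numbers, without normalization. Salmon divides reads among similar transcripts, and the counts of loci with a near-identical copy are therefore uncertain. Deposited tables of the authors' own DESeq2 contrasts, which hold log2 fold changes, p-values and scores, were not used, and neither were flag-leaf libraries.

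The columns name genotype, treatment and a number, so each column was placed in a group without a pot. Libraries of a group came from separate pots, and p-values measure the spread between these libraries. The study treated Swarna control replicate 3 as an outlier, and it was not used here except as an alternative. Counts were fitted with edgeR 4.0.16 in R 4.3.3 (TMM, 1 coefficient per group, quasi-likelihood F test, Benjamini-Hochberg over genes with at least 10 counts in 15 libraries). The SE is the log2 fold change over the square root of F. Normalized counts were TMM-scaled. Scripts were tested on simulated data.

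Members were named if called between genotypes in both treatments, if at most 3 counts in every library of 1 genotype, if called for the interaction, if next to an edge of the block, or if among the 5 largest drought changes per direction and genotype with a mean of at least 50 normalized counts. Others were chosen after their values were seen. Members and lists were chosen with earlier results of these data known. A further 3 loci of the block are not reported here. Alternatives were DESeq2 1.42.0, RLE size factors, filterByExpr, no filter, all 16 libraries, each library left out, a limit of 10 counts, and full library sizes for the held-out library. Figures were drawn with matplotlib 3.10.9.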

Additional observations from a re-analysis of the deposited data

Results flagged for a closer look

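In groups of 4 libraries, the gap of the highest or lowest library to its nearest neighbour was compared with the range of the group (Dixon's 95% value, which chance passes in about 1 of 20 groups). Of 61 groups examined, 6 had a library set apart. LOC_Os01g38650 had 47.5 normalized counts in Swarna drought replicate 4, above the 3 others. LOC_Os01g37600 had 79.1 in DTY-IL control replicate 2, above the others. LOC_Os01g37630 had 548 in Swarna drought replicate 3, above the others. LOC_Os01g38500 had 188 in DTY-IL control replicate 3, below the others, and 21.8 in DTY-IL drought replicate 2, also below the others. LOC_Os01g38610 had 1077 in DTY-IL control replicate 3, below the others.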

How the results depend on the processing

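No paired analysis was possible because the count columns carry no pot numbers. Called members kept their direction for drought in each of the 20 alternatives that tested them, and some with few counts were not tested in all. Of the 18 members called for drought in DTY-IL, 10 were called in all 21 settings, as were 13 of the 26 in Swarna. With all 16 libraries 11 members were called in DTY-IL instead of 18, and with DESeq2 4 were called for the difference of drought responses instead of 0; the cause was not tested. Leaving out 1 library gave 15 to 18 members called for drought in DTY-IL, 21 to 30 in Swarna, 10 to 11 between genotypes under control, 15 to 21 between genotypes under drought, 6 to 7 at the limit in 1 genotype and 0 to 0 for the difference of drought responses. Of the 10 members called between genotypes in both treatments, 9 were called in all 21 settings, and LOC_Os01g38650 was lost under drought in 8 of them. With full library sizes, 7 and not 8 members of the left-out library lay on the Swarna side. Uncalled drought values in DTY-IL changed sign for LOC_Os01g37470 (leave-one-out range -0.1998 to 0.0661, highest without DTY-IL control replicate 2), LOC_Os01g38580 (-0.0947 to 0.2564, lowest without DTY-IL control replicate 3) and LOC_Os01g37280 (-0.0394 to 0.1857, lowest without DTY-IL control replicate 4). In the 18 members with a mean under 10 normalized counts, counting error limits what could be detected.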

Other observations

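Among members with a mean of at least 50 normalized counts, the median SD of log2 values within a group was 0.26, beside 0.29 for all genes at that level, and LOC_Os01g37460 stood out at 2.42. LOC_Os01g37350 and LOC_Os01g37360, which are neighbours and were chosen after their values were seen, varied together among replicates. In DTY-IL control, LOC_Os01g37350 had 217, 33.6, 18.9 and 10.1 normalized counts and LOC_Os01g37360 had 112, 15.5, 12.3 and 8.99. Among the Swarna drought libraries, replicates 2 and 3 lay apart from replicates 1 and 4 in 43 members (44.3%), beside 41.8% of all genes.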
